A study of Mus musculus with 4 samples.

Results

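Basement membrane, matrix glycoprotein and proteoglycan genes were described in RNA of mouse lung endothelial cells sorted by a record of past alpha smooth muscle actin expression. The 49 genes were taken by symbol from a list of laminins, nidogens, proteoglycans, matricellular proteins, lysyl oxidases and latent TGF-beta binding proteins. The list was chosen with earlier results of these data known. All 49 were found among the 17915 coding genes of the deposited table. All mice carried Cdh5-CreER;aSMA-LSL-Dre;NR1. Cdh5-CreER is a tamoxifen-dependent Cre recombinase under the VE-cadherin promoter, which is active in blood and lymphatic endothelium alike. The aSMA-LSL-Dre allele places a Dre recombinase at the smooth muscle actin gene behind a stop cassette that Cre removes, and the reporter turns cells from ZsGreen to tdTomato once that gene has been active, even briefly. Both groups received tamoxifen 5 times and were collected 6 weeks after transverse aortic constriction (TAC), a surgical pressure overload of the heart, so no group without surgery enters the comparison. The groups were 2 libraries of tdTomato+ cells, in which Acta2 had been active at some time, and 2 libraries of ZsGreen+ cells. The labels call the libraries of a group biological replicates, and give neither age nor sex, nor whether they came from separate or pooled animals. The p-values therefore measure only the spread between these libraries, which may be technical.

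A basement membrane is a thin sheet under endothelium built from laminin trimers, type IV collagen, nidogens and the proteoglycan perlecan. In the lung capillary wall it is shared with the alveolar epithelium, and it anchors cells through integrins. The interstitial matrix beyond it holds fibronectin, collagen fibrils decorated by small leucine-rich proteoglycans and elastic fibres, which lysyl oxidases cross-link, while matricellular proteins such as SPARC and thrombospondins act on cells more than as scaffold.

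Total counts were between 17050673 and 18574737 per library. Levels of single genes are given as CPM (counts scaled to the library's TMM-adjusted size), and levels of different genes are compared in TPM, which corrects for transcript length. Acta2, the recorded gene, stood at 281 and 450 TPM in tdTomato+ cells and at 62.1 and 70.6 TPM in ZsGreen+ cells (log2 fold change 2.29, SE 0.29, edgeR adjusted p = 0.0432). The sum of 10 endothelial markers was 7870 and 7722 TPM in tdTomato+ cells and 8682 and 8672 TPM in ZsGreen+ cells. In CPM, 5 of the 10 had both tdTomato+ libraries below both ZsGreen+ libraries (50%, against 18.2% of all genes). For 1, Emcn, both lay above (10%, against 19.9%). edgeR called 0 of the 10. Markers of other cells were also read: 8 macrophage markers summed to 9106 and 4093 TPM in tdTomato+ cells and to 4069 and 992 TPM in ZsGreen+ cells.

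Together the 49 genes made up 0.602% and 0.634% of TPM in tdTomato+ cells and 0.597% and 0.644% in ZsGreen+ cells, so the summed level overlapped between the groups. The matricellular protein Sparc led with a mean of 3808 TPM. Its relative Sparcl1 (700 TPM), the proteoglycan Bgn (499), the microfibril protein Mfap2 (239), Ecm1 (175), Thbs1 (132) and Mmrn2 (129) followed. At the low end Vtn, vitronectin, had 1 read in all libraries together, and Aspn, asporin, had at most 10 reads in any library. These 2 genes did not pass the filter on low counts, which left 47 members for the test. Of the 47, 42 reached the filter's cutoff of 0.562 CPM in all 4 libraries. Lama3, Lamb3, Smoc2, Lum and Ogn reached it in both tdTomato+ libraries and in 1 ZsGreen+ library.

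**Figure D1:**
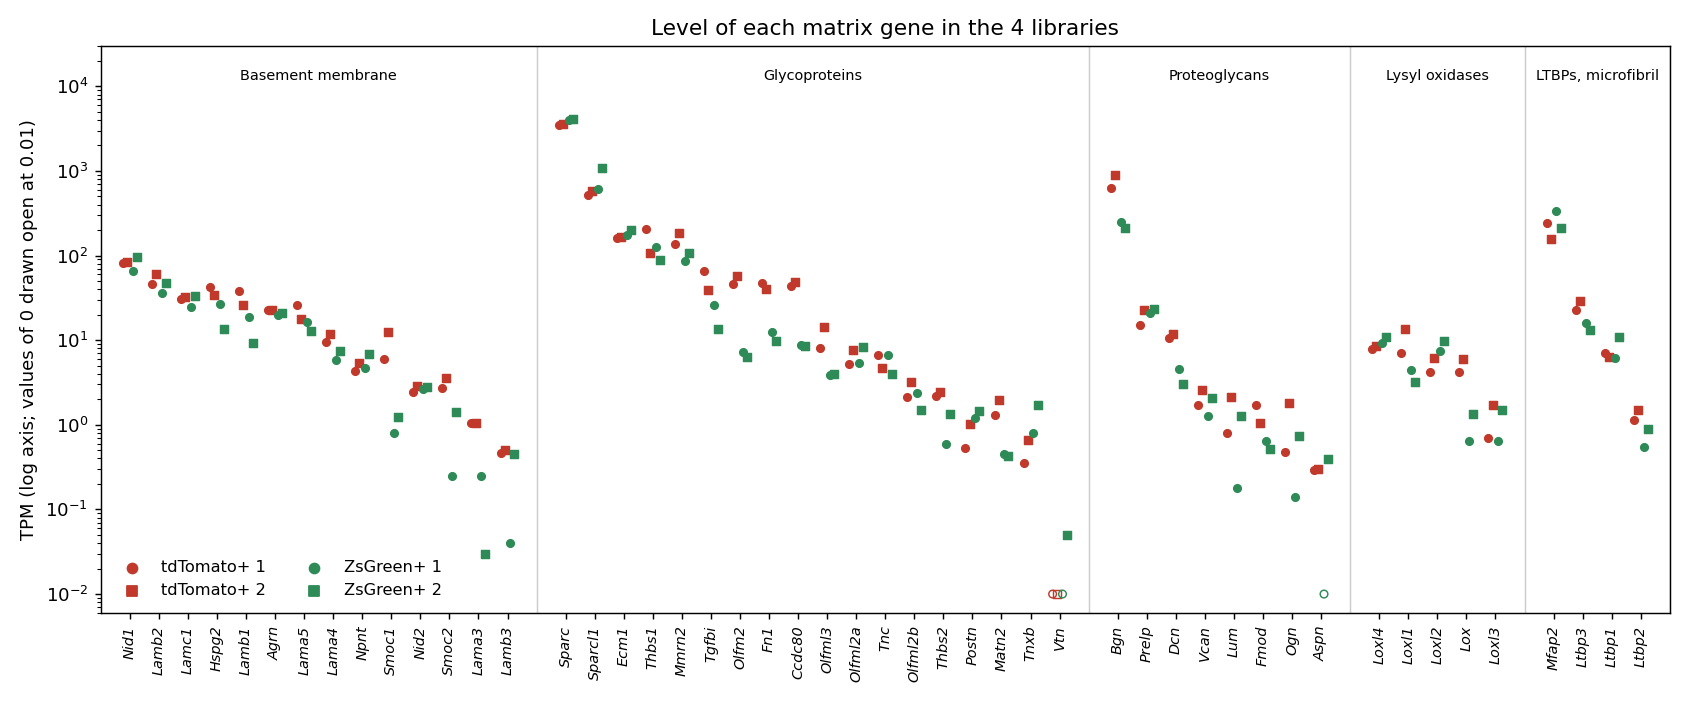
Level of each of the 49 matrix genes in TPM on a log axis, by role class and ordered by mean level within it, with 1 point per library (red tdTomato+, green ZsGreen+; circles replicate 1, squares replicate 2; 0 drawn open at 0.01). The red points of Olfm2, Fn1, Ccdc80 and Bgn lie above the green ones, while Sparc stands near 3490 to 4124 TPM in all 4 libraries.

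Fibronectin, Olfm2 and Ccdc80 rose in tdTomato+ cells, and no member was called lower by edgeR on all 4 libraries without a replicate block. edgeR's quasi-likelihood test called 3 of the 47 members higher (6.38%), where 0.167% of all 13177 genes tested were called higher and 0.304% in either direction. It called 0 members lower, against 0.137% of all genes. DESeq2, limma-voom and limma on TPM also called 0 members lower. An edgeR fit with the replicate number as a block did call members lower and more members higher, as given in the last section. At an unadjusted p under 0.05, 18 members were higher (38.3%, against 5.62% of all genes) and 3 lower (6.38%, against 3.15%). Both tdTomato+ libraries lay above both ZsGreen+ libraries for 22 of the 47 members, where 19.9% of all genes did so, and below for 9, where 18.2% did. The 22 include Lama3, Lamb3 and Smoc2, and the 18 include Lama3 and Smoc2. These genes reached the filter's cutoff in both tdTomato+ libraries but only 1 ZsGreen+ library, so they passed it through the group where they are high. The median log2 fold change of tested members was 0.55, and that of all genes -0.01. Members were chosen with earlier results of these data known, so these shares and medians are description and no independent test of the list. The call of all 3 genes ended without tdTomato+ replicate 2 (edgeR adjusted p = 0.126 for Olfm2 and Ccdc80 and 0.186 for Fn1), and without ZsGreen+ replicate 1 the test called 9 members higher and 1, Sparcl1, lower. Each fit without 1 library leaves an arm with 1 library, so its spread comes from the other group's 2 libraries alone, and the lone library is assumed to vary like them.

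**Figure D2:**
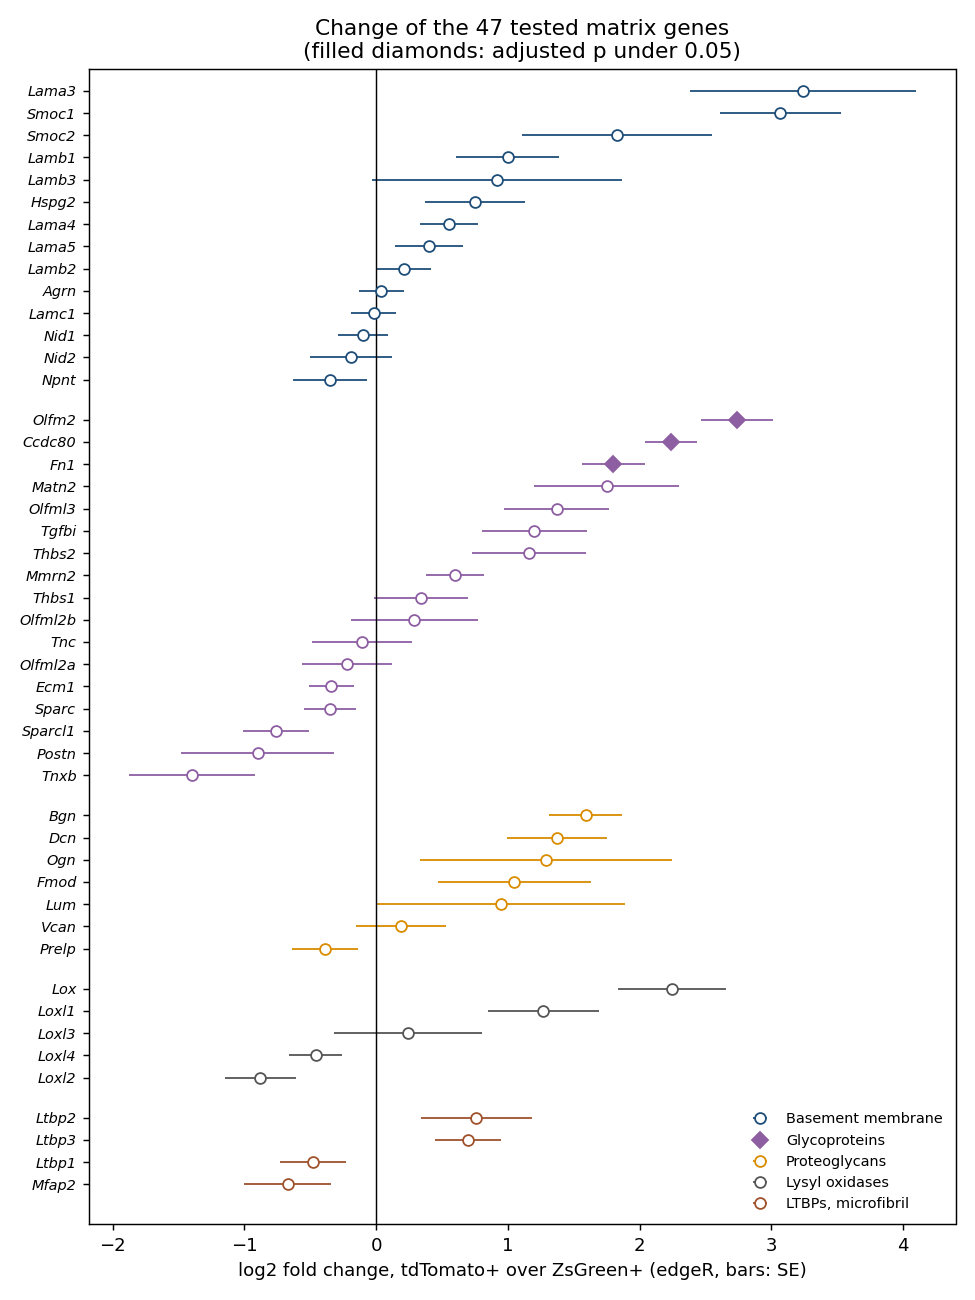
Log2 fold change of tdTomato+ over ZsGreen+ cells with its standard error for the 47 tested members, by role class, with filled diamonds for members called at an adjusted p under 0.05. Olfm2 (2.74), Ccdc80 (2.24) and Fn1 (1.80) are the filled points, and the members of each class spread to both sides of 0.

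Among the glycoproteins, Olfm2, a secreted olfactomedin domain protein, had the largest rise of the 3 called genes. It had 47.3 and 61.6 CPM in the tdTomato+ libraries but 9.43 and 6.85 CPM in the ZsGreen+ libraries (log2 fold change 2.74, SE 0.27, edgeR adjusted p = 0.0304). Every tdTomato+ library was thus far above every ZsGreen+ library, and the fold was 6.69. Of the 4 olfactomedin genes among the members, Olfm2 took 75% and 69.6% of the summed TPM in tdTomato+ cells and 38.9% and 31.6% in ZsGreen+ cells. Olfml3 had 7.76 and 14.4 CPM versus 4.56 and 4 CPM (log2 fold change 1.37, SE 0.40, edgeR adjusted p = 0.332). Olfml2a (-0.22, SE 0.34) and Olfml2b (0.29, SE 0.48) overlapped between the groups.

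Olfm2 (NCBI Gene 244723) lies on chromosome 9 at 20667690 to 20746333 of GRCm38 and has 3 annotated start sites in RefSeq. Promoter sequence was at hand for 31 of the 49 members. The 250 bases before each Olfm2 start are shown because this gene had the largest called rise, with that of Bgn, the most abundant of the proteoglycan members, chosen after its values were seen. Sequences are from RefSeq's GRCm38.p6, 5′ to 3′ on the gene's strand, and capitals mark the E-box CAGGTG on either strand.
Olfm2 start 1 (chr9:20746297-20746546, minus strand): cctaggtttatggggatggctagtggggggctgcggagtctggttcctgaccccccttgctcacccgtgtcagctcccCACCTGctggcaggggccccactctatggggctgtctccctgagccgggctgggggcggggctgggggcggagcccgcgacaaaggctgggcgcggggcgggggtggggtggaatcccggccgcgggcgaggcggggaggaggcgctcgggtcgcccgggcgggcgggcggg
Olfm2 start 2 (chr9:20728230-20728479, minus strand): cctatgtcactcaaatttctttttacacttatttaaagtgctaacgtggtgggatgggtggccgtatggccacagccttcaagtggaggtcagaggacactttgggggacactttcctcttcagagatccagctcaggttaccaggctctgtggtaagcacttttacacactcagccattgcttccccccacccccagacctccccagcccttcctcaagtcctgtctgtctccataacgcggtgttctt
Olfm2 start 3 (chr9:20727004-20727253, minus strand): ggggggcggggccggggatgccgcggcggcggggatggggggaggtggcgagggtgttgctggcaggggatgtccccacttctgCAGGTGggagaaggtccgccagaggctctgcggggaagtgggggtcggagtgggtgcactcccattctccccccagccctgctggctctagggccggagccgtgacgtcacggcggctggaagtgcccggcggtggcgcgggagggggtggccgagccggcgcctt
Bgn (chrX:73483351-73483600, plus strand): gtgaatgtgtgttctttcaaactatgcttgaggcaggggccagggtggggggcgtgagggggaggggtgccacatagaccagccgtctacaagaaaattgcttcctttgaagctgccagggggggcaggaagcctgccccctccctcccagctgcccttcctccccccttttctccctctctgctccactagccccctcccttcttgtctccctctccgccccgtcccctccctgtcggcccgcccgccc
The deposited counts are per gene and do not say which start was used. The first start lies in an exon of the GENCODE M21 model 53 bases from its start, the second in an exon 18120 bases from that start, and the other in an intron 19346 bases from it. The first and last Olfm2 windows are rich in G and C (76% and 74.8%), and the second has 51.6%. CAGGTG, known to be bound by Snail and Zeb factors, occurs once in the first and once in the last of them, and in 17.2% of all 32851 windows of this length. The SMAD palindrome GTCTAGAC (0.167% of all windows), the TEAD motif GGAATG (12.6%), the AP-1 motif TGAGTCA (4.46%), the RUNX motif AACCACA (4.4%) and the CArG box of serum response factor (1.47%), each searched on both strands, have no match in these 4 windows. The short SMAD half-site AGAC, held by 82.9% of all windows, occurs 2, 3 and 0 times in the Olfm2 windows and 3 times in that of Bgn.

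Ccdc80, a secreted protein that binds matrix, had 87 and 102 CPM in the tdTomato+ libraries but 21.9 and 18.1 CPM in the ZsGreen+ libraries (log2 fold change 2.24, SE 0.20, edgeR adjusted p = 0.0304). The libraries of each group lay close together, and the groups were 4.72-fold apart. Fn1, fibronectin, which cells assemble into fibrils through integrins, had 227 and 199 CPM versus 73.4 and 48.6 CPM (log2 fold change 1.80, SE 0.24, edgeR adjusted p = 0.0467). Its call was the least stable of the 3. It also ended without tdTomato+ replicate 1 (edgeR adjusted p = 0.12), without ZsGreen+ replicate 2 (0.0553), with library sizes that leave out ribosomal protein genes (0.0504) and, in limma on log2 of TPM plus 0.1, at an adjusted p of 0.0505. Ccdc80 lies at 45093407 to 45127924 on chromosome 16 in RefSeq, and Fn1 at 71585473 to 71653280 on chromosome 1.

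Other glycoproteins lay higher in both tdTomato+ libraries without a call. Tgfbi, a TGF-beta-induced adhesion protein, had 103 and 64 CPM versus 50.3 and 22.3 CPM (log2 fold change 1.20, SE 0.40, edgeR adjusted p = 0.426). Mmrn2, an endothelial multimerin of the vessel wall, had 317 and 445 CPM versus 243 and 259 CPM (0.60, SE 0.22, edgeR adjusted p = 0.48). Its relative Mmrn1, which is no member and marks lymphatic endothelium, fell from 22.1 and 56.3 TPM in ZsGreen+ cells to 5.78 and 4.06 TPM in tdTomato+ cells (log2 fold change -3.10, SE 0.39, edgeR adjusted p = 0.0432). Thbs2 (1.16, SE 0.43) and Matn2, matrilin 2 (1.75, SE 0.55), were read at 9.08 CPM or less in every library.

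The thrombospondin Thbs1, an activator of latent TGF-beta, did not separate the groups, with 714 and 389 CPM in its tdTomato+ libraries and 546 and 324 CPM in the ZsGreen+ ones (log2 fold change 0.34, SE 0.36, edgeR adjusted p = 0.888). Replicate 1 was the higher library in both groups, and without tdTomato+ replicate 1 the sign turned (-0.17, SE 0.40). Thbs1 made up 97.8% or more of the TPM of both thrombospondins in every library. Tnc, tenascin C, was likewise higher in replicate 1 of both groups, at 26 and 18.1 CPM versus 32.2 and 15.4 CPM.

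Sparc, Sparcl1 and Ecm1, all abundant, lay on the lower side in tdTomato+ cells without a call. Sparc, a collagen-binding matricellular protein, had 4186 and 4538 CPM versus 5961 and 5181 CPM (log2 fold change -0.35, SE 0.20, edgeR adjusted p = 0.736). Sparcl1 had 939 and 1089 CPM versus 1364 and 2065 CPM (-0.76, SE 0.25, edgeR adjusted p = 0.421), and its call without ZsGreen+ replicate 1 had a log2 fold change of -1.02 (edgeR adjusted p = 0.0385). Ecm1, extracellular matrix protein 1, had 172 and 182 CPM versus 227 and 224 CPM (-0.34, SE 0.17, edgeR adjusted p = 0.665). In all 3 genes both tdTomato+ libraries were below both ZsGreen+ libraries, by 1.27-fold to 1.69-fold. Of the genes read at low levels, Tnxb, tenascin X, had 2.31 and 4.88 CPM versus 7.21 and 11.8 CPM (-1.40, SE 0.48, edgeR adjusted p = 0.439), and Postn, periostin, stayed at 2.72 CPM or less in every library (-0.90, SE 0.58).

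In the basement membrane class, 0 of 14 members were called by edgeR, limma-voom or limma on TPM. At an unadjusted p under 0.05, 5 were higher (35.7%, against 5.62% of all genes) and 0 lower (against 3.15%). DESeq2 called Lama3 and Smoc1 higher, among 204 genes that it called higher in all. The median log2 fold change was 0.47, and 0.27 without ZsGreen+ replicate 2. The summed level was 315 TPM in each tdTomato+ library and 224 and 252 TPM in the ZsGreen+ libraries. Nid1, nidogen 1, which links laminin to collagen IV, was the most abundant, at 295 and 316 CPM versus 295 and 359 CPM (log2 fold change -0.10, SE 0.19), and made up at least 96.1% of nidogen TPM in every library. Nid2 gave -0.19 (SE 0.31).

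Laminins are trimers of an alpha, a beta and a gamma chain, and endothelium makes mostly those with alpha 4 or alpha 5. Lama5 led the alpha chains in every library. Its share of the TPM of Lama3, Lama4 and Lama5 was 71.2% and 57.9% in tdTomato+ cells and 72.8% and 63.5% in ZsGreen+ cells, so the groups overlapped. The lower share of Lama5 fell to replicate 2 in both groups. Lama5 had 180 and 129 CPM versus 140 and 94 CPM (log2 fold change 0.40, SE 0.26), and Lama4 at 34.4 and 44.9 CPM versus 26.2 and 28.1 CPM (0.55, SE 0.22, edgeR adjusted p = 0.538).

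Lamb2 led the beta chains in all 4 libraries, with 54.6% and 69.2% of beta chain TPM in tdTomato+ cells and 65.6% and 83.1% in ZsGreen+ cells. Lamb1, the other main beta chain, had 129 and 93.7 CPM versus 78.5 and 32.6 CPM (log2 fold change 1.00, SE 0.39, edgeR adjusted p = 0.527). Both tdTomato+ libraries were above both ZsGreen+ libraries, and without ZsGreen+ replicate 1 it reached 1.77 (edgeR adjusted p = 0.0194, with the spread taken from the tdTomato+ libraries alone). Lamb2 overlapped at 154 and 211 against 149 and 165 CPM (0.21, SE 0.21). Lamc1, the gamma chain shared by most laminins, had 140 and 155 CPM versus 139 and 159 CPM (-0.02, SE 0.17), the smallest difference of the class.

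Lama3 and Lamb3, chains of an epithelial laminin, were read at low levels. Lama3 had 95 and 111 reads in the tdTomato+ libraries and 17 and 2 reads in the ZsGreen+ libraries, or 5.23 and 5.83 CPM versus 1.08 and 0.11 CPM (log2 fold change 3.24, SE 0.86, edgeR adjusted p = 0.279). Without ZsGreen+ replicate 1 its fitted value was 5.57 on the log2 scale (edgeR adjusted p = 0.0194), which rests on 2 reads in the remaining ZsGreen+ library. Lamb3 had 20 and 24 reads against 2 and 20 reads. Alveolar type 2 markers lay the same way: 7 of 8 had both tdTomato+ libraries above both ZsGreen+ libraries (87.5%, against 19.9% of all genes). edgeR called 0 of them, none was at 0 in any library, and their sum was 838 and 909 TPM versus 435 and 248 TPM. Alveolar type 1 markers overlapped, at 30.6 and 56.4 TPM versus 33 and 42.6 TPM. Airway markers summed to 279 and 296 TPM versus 79.3 and 2109 TPM, of which Scgb1a1 gave nearly all. That gene alone stood at 275.81 and 292.54 TPM versus 79.09 and 2098.04 TPM, while Foxj1 lay between 0.24 and 1.32 TPM. The part of these epithelial markers in the Lama3 difference was not tested. Itgb4, the beta 4 integrin that binds this laminin, stood at 33.9 and 43.1 TPM versus 13.1 and 10.3 TPM (log2 fold change 1.56, SE 0.26, edgeR adjusted p = 0.0978).

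The secreted calcium-binding protein Smoc1 came closest to a call in this class. It had 12.1 and 26.1 CPM in the tdTomato+ libraries but 1.96 and 2.57 CPM in the ZsGreen+ libraries (log2 fold change 3.07, SE 0.46, edgeR adjusted p = 0.0768). The groups were well apart although the tdTomato+ libraries differed from each other. Without a filter on low counts it was called (edgeR adjusted p = 0.00924). It was also called without tdTomato+ replicate 1 (0.0471) and without ZsGreen+ replicate 1 (0.0459), where only the group with 2 libraries gives the spread. Its relative Smoc2 had 4.4 and 6.09 CPM versus 0.506 and 2.41 CPM (1.83, SE 0.72, edgeR adjusted p = 0.523).

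Of the heparan sulfate proteoglycans of the basement membrane, Hspg2, perlecan, had 369 and 313 CPM versus 284 and 121 CPM (log2 fold change 0.75, SE 0.38, edgeR adjusted p = 0.678). ZsGreen+ replicate 2 was the low library. Agrn, agrin, stood between 89.9 and 102 CPM in all 4 libraries (0.04, SE 0.17). Npnt, nephronectin, a ligand of integrin alpha 8 beta 1, gave -0.35 (SE 0.28).

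The small leucine-rich proteoglycans were made up almost entirely of biglycan. Bgn took 95.6% and 95.8% of their TPM in tdTomato+ cells and 90.2% and 87.8% in ZsGreen+ cells. It had 871 and 1309 CPM versus 419 and 306 CPM (log2 fold change 1.59, SE 0.28, edgeR adjusted p = 0.112). The groups did not overlap, with means of 1090 ± 309 and 362 ± 79.9 CPM (SD, n = 2). DESeq2, edgeR without a filter on low counts (adjusted p = 0.0203), edgeR without ZsGreen+ replicate 1 (0.0237) and limma on log2 of TPM plus 1 (0.0455) called it. Of the 7 tested members of this class, which includes versican, edgeR and limma-voom called 0. At an unadjusted p under 0.05, 2 were higher (28.6%, against 5.62% of all genes) and 0 lower (against 3.15%).

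Dcn, decorin, which binds collagen fibrils and TGF-beta, had 11 and 12.8 CPM versus 5.88 and 3.34 CPM (log2 fold change 1.37, SE 0.38, edgeR adjusted p = 0.294). Prelp, which anchors basement membrane to connective tissue, had 31.7 and 50 CPM versus 54.9 and 51.9 CPM (-0.39, SE 0.25, edgeR adjusted p = 0.781). Fmod, fibromodulin, had 3.08 and 2 CPM versus 1.46 and 0.986 CPM (1.05, SE 0.58, edgeR adjusted p = 0.732). Lum (0.95, SE 0.94), Ogn (1.29, SE 0.96) and Vcan, versican (0.19, SE 0.34), had both groups overlapping, with Lum and Ogn at 2.78 CPM or less. Some members of this family lie near each other in the genome: Dcn and Lum are 47338 bases apart on chromosome 10, Ogn and Aspn 40450 bases on chromosome 13, and Fmod and Prelp 107152 bases on chromosome 1. Within the last pair the log2 fold changes had opposite signs.

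The lysyl oxidases, which oxidize lysines of collagen and elastin for cross-linking, had values on both sides of 0, none of them called. Lox had 12 and 17.6 CPM in the tdTomato+ libraries but 2.21 and 4 CPM in the ZsGreen+ libraries (log2 fold change 2.25, SE 0.41, edgeR adjusted p = 0.126). Loxl1, which acts on elastic fibres, had 13.6 and 27.5 CPM versus 10.6 and 6.46 CPM (1.27, SE 0.42, edgeR adjusted p = 0.411). Both genes had every tdTomato+ library above every ZsGreen+ library.

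Loxl2, which cross-links basement membrane collagen IV, lay the other way, at 13 and 20 CPM versus 28.7 and 32.3 CPM (log2 fold change -0.88, SE 0.27, edgeR adjusted p = 0.35). Loxl4 did too, at 25 and 28.7 CPM versus 37.3 and 36.6 CPM (-0.46, SE 0.20, edgeR adjusted p = 0.577). Loxl3 was near the floor of the family, at 2.63 CPM or less (0.24, SE 0.56). In TPM, Lox and Loxl1 made up 17.8% and 29.4% of the family in tdTomato+ replicate 1 and 16.7% and 37.8% in replicate 2, against 2.84% and 19.7% in ZsGreen+ replicate 1 and 5.05% and 11.9% in replicate 2. Loxl2 made up 17.4% and 17.1% in tdTomato+ cells and 33.1% and 36.9% in ZsGreen+ cells. The summed level overlapped, at 23.9 and 35.8 TPM versus 22.6 and 26.7 TPM. edgeR, limma-voom and limma on TPM called 0 of the 5, and Lox was called higher by DESeq2 and by unfiltered edgeR (adjusted p = 0.0343). At an unadjusted p under 0.05, 2 were higher (40%, against 5.62% of all genes) and 1 lower (20%, against 3.15%). With 2 libraries against 2 the smallest exact two-sided permutation p is 0.333, so shares were not tested.

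**Figure D3:**
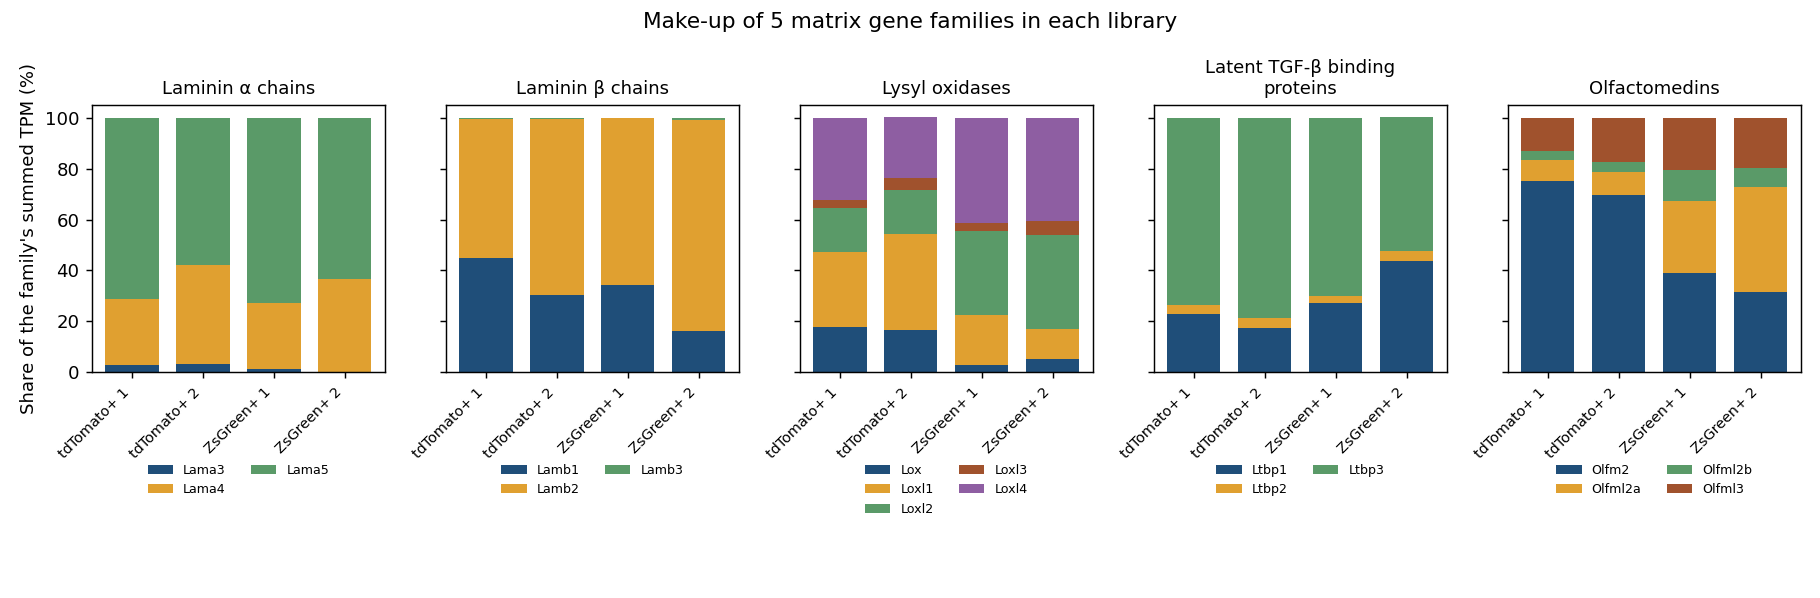
Share of each gene in the summed TPM of its family, in percent, for laminin alpha and beta chains, lysyl oxidases, latent TGF-beta binding proteins and olfactomedins, with 1 bar per library. Lox, Loxl1 and Olfm2 take larger shares in both tdTomato+ bars than in either ZsGreen+ bar, while the share of Lama4 and Lama5 overlaps between the groups.

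Latent TGF-beta binding proteins hold the growth factor in the matrix. Ltbp3 led the 3 members, with 73.6% and 78.6% of their TPM in tdTomato+ cells and 70.2% and 52.6% in ZsGreen+ cells, and had 64.3 and 84.4 CPM versus 54 and 37.4 CPM (log2 fold change 0.70, SE 0.25, edgeR adjusted p = 0.451). Ltbp1 had 25.1 and 23.4 CPM versus 27.4 and 40.3 CPM (-0.48, SE 0.25, edgeR adjusted p = 0.69), and Ltbp2 at 4.57 and 6.3 CPM versus 2.72 and 3.67 CPM (0.76, SE 0.42, edgeR adjusted p = 0.732). Ltbp4, which is no member and was named after its values were seen, exceeded all 3, at 400 and 486 TPM versus 179 and 138 TPM (1.31, SE 0.27, edgeR adjusted p = 0.156).

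Mfap2, a microfibril-associated glycoprotein, was more abundant than the 3 binding proteins among the members in every library, and overlapped between the groups. It had 125 and 86.2 CPM in the tdTomato+ libraries but 221 and 116 CPM in the ZsGreen+ libraries (log2 fold change -0.67, SE 0.33, edgeR adjusted p = 0.657). Of the 4 genes of this class edgeR, DESeq2, limma-voom and limma on TPM called 0. At an unadjusted p under 0.05, 1, Ltbp3, was higher (25%, against 5.62% of all genes).

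Matrix genes outside the list were counted in the same fit. Of all genes tested edgeR called 0.167% higher and 0.137% lower. At an unadjusted p under 0.05, 5.62% of all genes were higher and 3.15% lower. DESeq2 called 204 genes higher and 126 lower. Of 23 tested further glycoproteins edgeR called 2 higher (8.7%), Mgp (log2 fold change 2.22, SE 0.23) and Fbln2 (1.81, SE 0.17). It called 2 lower (8.7%), Mmrn1 and Reln, a secreted glycoprotein of lymphatic endothelium among other cells (-3.20, SE 0.41). The median of these glycoproteins was 1.31. Of 18 further basement membrane genes edgeR and DESeq2 called 0, with 2 higher and 3 lower at an unadjusted p under 0.05 and a median of 0.35. The collagen IV chains Col4a1 (-0.58, SE 0.23) and Col4a2 (-0.54, SE 0.22), the partners of laminin, and Egflam, pikachurin (-1.14, SE 0.47), were the 3 lower genes. Of 16 further proteoglycans both tools called 0, with 5 higher and 0 lower at an unadjusted p under 0.05, among them the glypican Gpc3 (1.54, SE 0.49), the testican Spock2 (1.82, SE 0.62) and endocan, Esm1 (0.59, SE 0.23), and a median of 0.77.

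Of 19 matrix receptors edgeR called 0 and DESeq2 2 higher and 1 lower, with a median of 0.07. At an unadjusted p under 0.05, 3 receptors were higher (15.8%, against 5.62% of all genes) and 1 lower (5.26%, against 3.15%). Those with the smallest p were Itgb4, the hyaluronan receptor Cd44 (1.07, SE 0.19) and the thrombospondin receptor Cd36, which had 350 and 378 TPM versus 469 and 875 TPM (edgeR adjusted p = 0.267). Of 7 genes of matrix-bound TGF-beta and its processing edgeR called 0 and DESeq2 1 higher. At an unadjusted p under 0.05, 2 were higher (28.6%, against 5.62% of all genes) and 2 lower (28.6%, against 3.15%). The tolloid protease Tll1, of a family that cleaves the lysyl oxidase proenzyme, gave 1.42 (SE 0.37), the collagen proteinase enhancer Pcolce 1.10 (SE 0.35) and the ligand Tgfb3 -1.08 (SE 0.32).

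Markers of cells known for these genes lay higher beside several results. Of 11 tested fibroblast markers edgeR called 0 and DESeq2 4 higher. For 6 (54.5%, against 19.9% of all genes) both tdTomato+ libraries lay above both ZsGreen+ libraries, and 0 lay below. The sum of 12 was 147 and 218 TPM versus 71.1 and 68.6 TPM. Pi16 stood at 52.4 and 64.4 TPM versus 12.2 and 5.59 TPM, and Col3a1 at 17.8 and 33.9 TPM versus 5.99 and 9.21 TPM. Fap was at 0 in tdTomato+ replicate 2, and the defining receptor Pdgfra lay between 0.56 and 0.92 TPM in all libraries. The part of these markers in the differences of Fn1, Ccdc80, Bgn, Dcn, Lox and Loxl1 was not tested. Bgn exceeded the sum of all 12 fibroblast markers in every library, which does not tell which cells made its RNA. Of members known from fibroblasts, Dcn stood at 10.65 and 11.77 TPM versus 4.53 and 3.07 TPM. Lum and Ogn reached at most 2.11 TPM with overlapping groups, and Postn lay the other way, at 0.53 and 1.01 TPM versus 1.20 and 1.44 TPM.

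All 8 macrophage markers had a log2 fold change above 0 (median 1.12), and edgeR called 0 and DESeq2 1 of them. For 2 (25%, against 19.9% of all genes) both tdTomato+ libraries lay above both ZsGreen+ libraries. Neutrophil markers summed to 165 and 206 TPM versus 105 and 61.8 TPM. In TPM, Fn1, Tgfbi, Lamb1, Hspg2, Fmod and Lama5 had the same order of the 4 libraries as the macrophage sum. There, tdTomato+ replicate 1 was highest and ZsGreen+ replicate 2 lowest. That sum was nearly equal in tdTomato+ replicate 2 (4093 TPM) and ZsGreen+ replicate 1 (4069 TPM). In CPM, Lyz2, the most abundant of these markers, had 3953 and 1969 CPM versus 2269 and 469 CPM. Thbs1 and Lama5 had that order of libraries in CPM, while Fn1, Tgfbi, Lamb1, Hspg2 and Fmod did not. A shared order of 4 libraries does not tell which cells made the RNA. The part of macrophage and neutrophil markers in the differences of Fn1, Tgfbi, Lamb1, Hspg2, Fmod, Lama5 and Thbs1 was not tested.

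Pericyte markers stood near the floor, with a sum of 9 markers of 7.07 and 8.1 TPM versus 5.28 and 12.3 TPM. Trpc6 was at 0 in 1 library of each group. Smooth muscle markers other than Acta2 summed to 1571 and 2005 TPM versus 1230 and 1009 TPM, of which Tagln gave nearly all, and Myh11 reached at most 1.98 TPM. Within endothelium, venous markers summed to 1362 and 1257 TPM versus 526 and 458 TPM. Of 7, edgeR called 1 higher, Vcam1 (14.3%, against 0.167% of all genes), and Nr2f2, Ephb4 and Slc6a2 overlapped in CPM. Aerocyte capillary markers summed to 128 and 133 TPM versus 203 and 235 TPM, with 1 of 6 called lower, Prx (16.7%, against 0.137%). Arterial markers summed to 701 and 966 TPM versus 760 and 869 TPM, with 0 of 7 called. Gja5 (log2 fold change 2.01, SE 0.33) and Bmx (1.67, SE 0.37) had both tdTomato+ libraries above both ZsGreen+ libraries in CPM (28.6%, against 19.9% of all genes). Sox17 (-0.47, SE 0.24) and Hey1 (-0.60, SE 0.23) had both below (28.6%, against 18.2%). General capillary markers summed to 5148 and 5328 TPM versus 5965 and 5641 TPM. Lymphatic markers summed to 400 and 587 TPM versus 371 and 597 TPM, so their sum overlapped. Of 6 lymphatic markers tested 3 were called lower (50%, against 0.137% of all genes), Reln, Mmrn1 and Thy1. Lyve1, the most abundant of the 6, lay on the higher side (log2 fold change 0.42, SE 0.31). In bulk RNA a change in the share of such cells and a change in RNA per cell cannot be told apart.

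**Figure D4:**
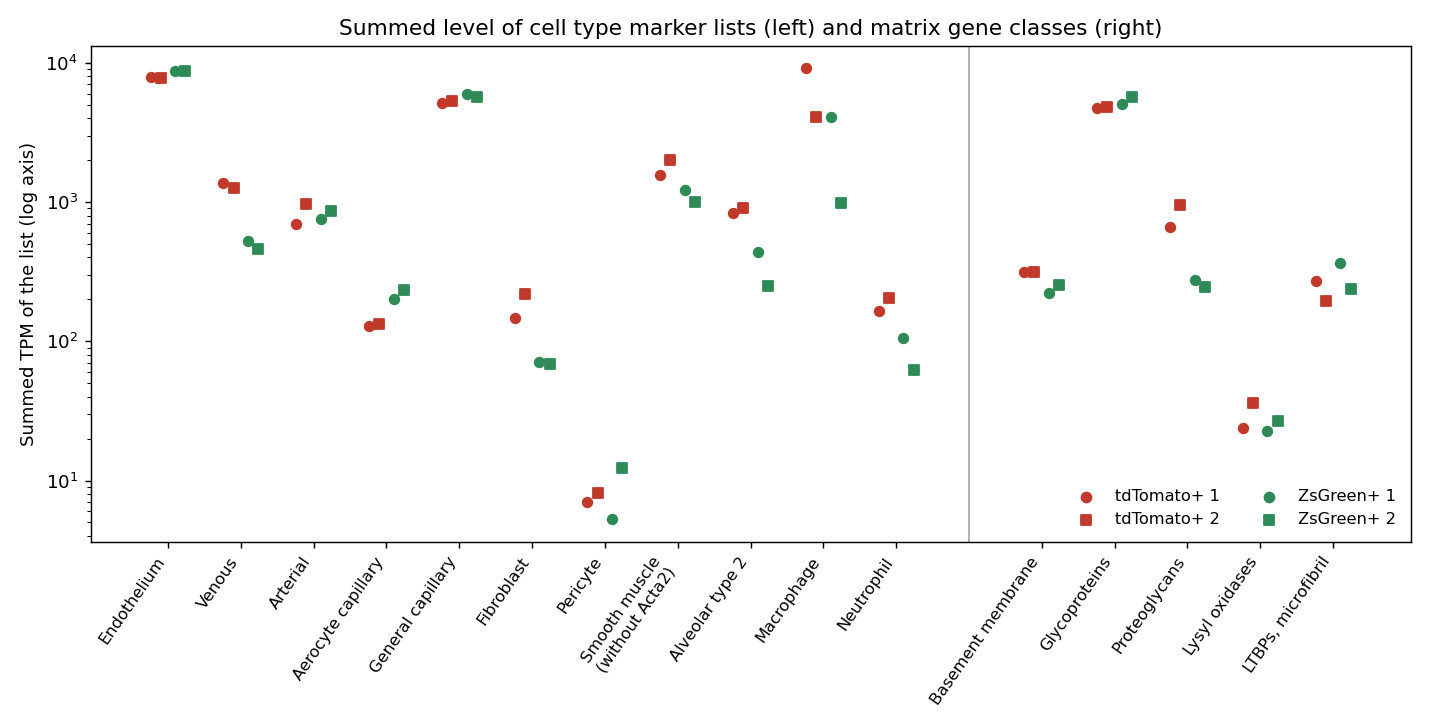
Summed TPM on a log axis of 11 cell type marker lists (left) and of the 5 classes of matrix genes (right), with 1 point per library. The venous, fibroblast, smooth muscle, alveolar type 2, macrophage and neutrophil sums lie higher in both tdTomato+ libraries, as do the basement membrane and proteoglycan classes. Endothelial, aerocyte capillary and general capillary sums and the glycoprotein class lie lower. The arterial and pericyte sums, lysyl oxidases and the class of latent TGF-beta binding and microfibril proteins overlap.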

How the data were processed

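Per the labels' protocols, sorted cells were lysed for RNeasy Micro RNA, which was amplified (Discover-sc WTA) and turned into MGI libraries (TruePrep). The authors deposited estimated counts and TPM per gene. The submitters' processing notes name RSEM 1.3.1, DESeq2 1.4.5 and GRCm38, with no role or order. No aligner or strand setting is given in the sources used here. Reads of overlapping genes thus cannot be separated. Estimated counts, of which 16.22% to 17.95% were not whole, as when a read fits several genes, were rounded for the tests. No molecular identifiers are named, so reads are not independent molecules. The deposited spans of 43 of 49 members match the RefSeq table, whose spans are printed. RefSeq lists further copies of Loxl3, Tnxb and Olfml3 on alternate contigs, so their reads may be split.

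edgeR 4.0.16 (R 4.3.3) compared the groups, taken from the labels, by a quasi-likelihood F-test (two-sided) after TMM scaling and filterByExpr with a minimum count of 10, over 13177 genes. A gene was called where its p, adjusted by Benjamini-Hochberg, was under 0.05. Each SE was derived as |log2 fold change| divided by √F. Dispersion corresponded to a common biological coefficient of variation of 26.1%. On simulated data with 13177 genes this test recovered, among genes of at least 5 CPM, 24% of those changed 2-fold, 93.6% at 4-fold and 99.6% at 8-fold. It also called 79 of 63810 unchanged genes, summed over 5 runs. Libraries were drawn independently there, which leaves out the shared deviation of same-numbered libraries, so recovery in the real data may differ. Replicates differed beyond counting noise. Members, 5 role classes and the lists of related and marker genes were chosen with earlier results of these data known, and no set test was run. Full statistics are given for called members, for the 4 smallest p per class at a mean of 1 CPM or more, and for members at a mean of 100 TPM or more. Other members are given by 1 value or a range. From each further list the called genes and up to 3 genes of smallest p, averaging 1 CPM or more, were named, except Ltbp4 and single markers, which were named after their values were seen. Alternatives tried were DESeq2 1.42.0, limma-voom (limma 3.58.1), scaling by RLE or upper quartile, other filters, leaving out each library, a replicate block, limma on log2 TPM plus 1 or plus 0.1, and library sizes without ribosomal protein genes.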

Additional observations from a re-analysis of the deposited data

How the results depend on the processing

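The count of 3 members higher and 0 lower in tdTomato+ cells was 7 and 0 with DESeq2 (330 genes called in all, against 40), 6 and 0 without a filter on low counts (128 genes), and 17 and 4 with the replicate number as a replicate block (934 genes). Leaving out each library in turn gave 4 to 304 genes called, 0 to 9 members higher, 0 to 1 lower, and a median log2 fold change of tested members of 0.36 to 0.60, against 0.55. Without tdTomato+ replicate 1 and without ZsGreen+ replicate 2 the test called 17 and 26 genes, without tdTomato+ replicate 2 it called 4, and without ZsGreen+ replicate 1 it called 304. Limma on log2 of TPM plus 0.1 called 22 genes. The cause of these shifts was not tested. TPM moved the median log2 fold change of all genes to 0.12 (plus 1) and 0.13 (plus 0.1).

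Same-numbered libraries deviated together (correlation across genes of deviations from the group means 0.47), but the labels do not say what a number marks and there are only 2 pairs, so the pairing comes from the numbers alone. Under the block the members called higher were Bgn, Ccdc80, Dcn, Fn1, Hspg2, Lama3, Lamb1, Lox, Loxl1, Ltbp3, Matn2, Olfm2, Olfml3, Smoc1, Smoc2, Tgfbi and Thbs2, and those called lower were Loxl2, Mfap2, Sparcl1 and Tnxb. Among lysyl oxidases the edgeR adjusted p with the block was 1.45e-08 for Lox, 0.00133 for Loxl1 and 0.00814 for Loxl2. Of 349 refits of single members, 314 kept their side of the threshold and direction, 27 gained a call, 7 lost it and 1 turned its sign, Thbs1 without tdTomato+ replicate 1 (-0.17, in a range of -0.17 to 0.77 over the libraries left out). Members under about 5 CPM rest on few reads, and changes at that level were not simulated.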
